A study of Mus musculus with 2 samples.

Results

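The Mouse Gene 2.0 ST array carries 5331 probe sets placed in introns and 1352 probe sets placed in exons of genes that the array's maker chose as controls, and these 6683 sets, of 41345 on the array, were examined in the colon of WT and C3 KO mice. They were chosen by the category given in the deposited gene table, not by any measured value. Total RNA from the colon of 1 WT sample and 1 C3 KO sample was hybridized to 2 arrays, 1 per group. Both groups were untreated mice of 16 weeks on the FVB background, bred from parents heterozygous for the C3 gene, and the C3 KO mice lack complement component 3. As tissue the labels name the distal colon, whereas the RNA extraction refers to mid colon, and it is not given in the sources used here how many mice went into each sample. Since each group has a single array, variation among mice could not be estimated. No test and no p-value can be given for any difference below, which describes these 2 arrays alone.

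When a gene is transcribed, its introns are copied together with its exons and are cut out as the RNA matures, so that mature mRNA in the cytoplasm holds the exons alone. An exon of a gene used by nearly all cells is therefore a positive control for an expression array, and an intron of such a gene serves as a negative control, since little of its sequence is left in mature RNA. The gap between both classes is widely used as a quality value of arrays of this type.

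The levels are log2 values that the authors normalized by robust multi-array averaging (RMA), so a difference of 1 is a 2-fold change, and 1.5-fold, the fold used as the threshold, is a difference of 0.58. The comparison class was the main category of 33793 transcript clusters, which stand for genes and transcripts. The tissue label was checked on marker genes. All 8 genes of the colonic epithelium, such as Muc2 and Krt20, had levels of 9.40 to 13.2 (WT) and 9.55 to 12.7 (C3 KO), with differences of -1.10 for Car1 and -0.49 for Muc2, and 4 of 4 smooth muscle genes had levels of 9.46 or more in both. For C3 itself the level was 8.15 (WT) and 6.80 (C3 KO). All 6 pancreatic acinar genes examined were lower in the C3 KO array, by 3.26 to 9.36 on the log2 scale. Their levels were 12.5 to 13.3 in WT, at the top of the range of the colonic epithelial genes, and 3.36 to 9.35 in C3 KO. The WT sample thus carried strong signal of pancreatic genes beside that of colon. The liver genes Alb and Apoa1 were 1.55 and 0.77 higher. Of 4 genes of B and plasma cells, Ms4a1 was at 4.53 (WT) and 5.83 (C3 KO) and Cd79a at 5.65 and 6.11. Jchain was at 10.5 and 10.8, and Mzb1 at 6.61 and 6.58. The Y-linked genes Ddx3y, Eif2s3y, Kdm5d and Uty were 2.50 to 4.89 higher in the C3 KO array. Xist, which silences the second X chromosome of females, was lower by 6.54 on the log2 scale. The part of these differences between the 2 samples in the control-set values was not tested.

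The exon sets were bright and the intron sets dim in both arrays. In WT the exon sets had a median level of 8.27, with an interquartile range of 6.97 to 9.52, and in C3 KO of 8.31 (7.03 to 9.51). The intron sets had a median level of 5.20 (4.11 to 6.13) in WT and of 5.41 (4.36 to 6.30) in C3 KO. The main transcript clusters lay close to the introns by their median, at 5.51 and 5.46, but reached much higher, with a 95th percentile of 9.10 in WT and 9.13 in C3 KO against 7.46 and 7.58 for the introns. The plot of the level distributions shows the exon class standing to the right of both others.

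**Figure D1:**
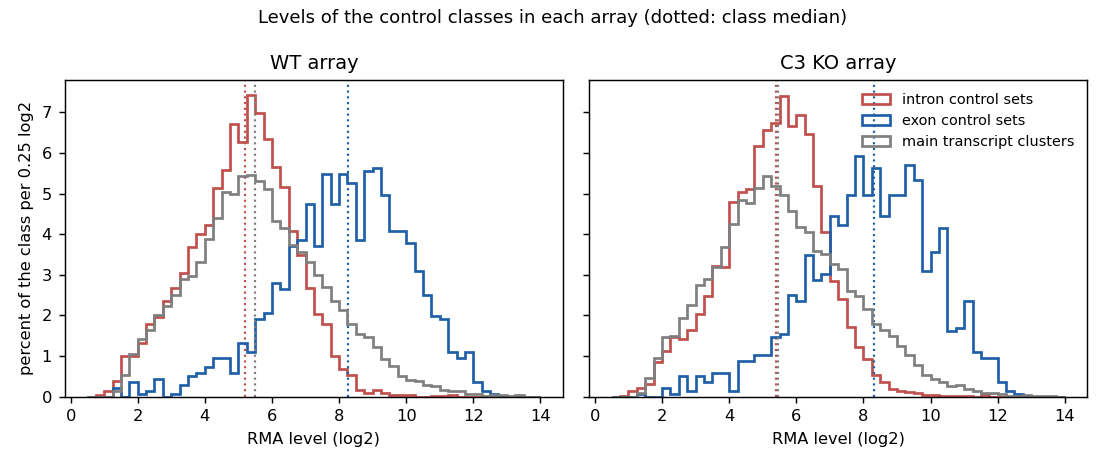
Distribution of RMA levels (log2, in steps of 0.25) for 5331 intron control sets, 1352 exon control sets and 33793 main transcript clusters in the WT array (left) and the C3 KO array (right), as percent of each class, with dotted lines at the class medians. The exon medians are 8.27 and 8.31, and the intron median moves from 5.20 in WT to 5.41 in C3 KO.

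The gap between the 2 control classes was smaller in the C3 KO array. The exon median lay above the intron median by 3.07 (WT) and by 2.90 (C3 KO), so the gap differed by -0.17. Of all pairs of 1 exon set and 1 intron set, the exon set was the brighter in a share of 0.895 in WT and 0.884 in C3 KO, a quantity known as the area under the curve. The share against main clusters was nearly equal in both arrays for the exon sets (0.822 and 0.823), while the intron sets were brighter than a main cluster in a share of 0.428 of pairs in WT and 0.466 in C3 KO. Thus, the narrower gap came with a higher position of the introns, and the exons kept their position relative to the main clusters. Both classes overlapped: 65 intron sets in WT and 80 in C3 KO were brighter than the exon median, and 95 and 107 exon sets were dimmer than the intron median. The exon sets of at least 4 probes, only 117 in number, had a smaller gap to the introns of at least 4 probes, of 1.77 in WT and 1.60 in C3 KO.

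Most intron sets were brighter than the middle of the background controls. The array holds 23 antigenomic sets, whose probes match no mouse transcript. They have a median of 912 probes each, against 4 for introns, so they are not matched to the introns in probe number. Their median levels were 4.20 (WT) and 3.99 (C3 KO), so this reference was itself lower in the C3 KO array. Below these medians lay 1422 intron sets (26.7%) in WT and 958 (18.0%) in C3 KO, against 23.8% and 21.0% of the main clusters. Of the exon sets, 46 (3.40%) in WT and 42 (3.11%) in C3 KO lay there. The antigenomic sets themselves spanned a wide range, from 1.45 to 8.56 in the WT array, and 5037 intron sets in WT and 4797 in C3 KO lay below their 75th percentile. The intron levels therefore lay within the range that background probes covered, with few exceptions.

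Across the sets, the difference between the C3 KO and WT arrays was shifted upward for introns. Their median difference was 0.19 (interquartile range -0.19 to 0.60, SD 0.68), and 3343 of 5331 sets (62.7%) were higher in the C3 KO array, 1967 were lower and 21 were equal. The exon sets had a median difference of 0.01 (-0.24 to 0.25, SD 0.52), with 684 sets higher, 662 lower and 6 equal. The main clusters had a median of 0 (-0.18 to 0.18, SD 0.41), with 48.5% higher. The interquartile range of the intron sets was thus wider and stood further up than that of either other class. Over sets, the levels of the 2 arrays correlated with Pearson's r of 0.896 for introns (n = 5331), 0.964 for exons (n = 1352) and 0.979 for main clusters (n = 33793), as a description of points that share the same 2 hybridizations.

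**Figure D2:**
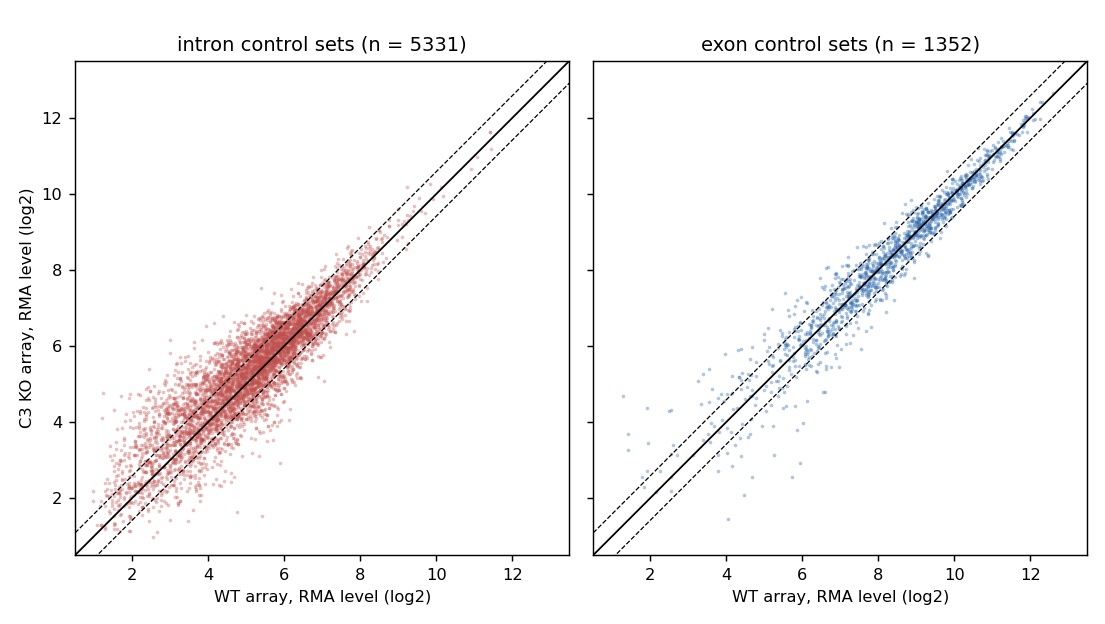
Level of each intron control set (left, n = 5331) and exon control set (right, n = 1352) in the C3 KO array against the WT array, both as RMA log2 values, with the line of equality and dashed lines at 1.5-fold. The intron cloud is broad and lies more above the line of equality than below it (3343 against 1967 sets). The exon cloud, at higher levels, is narrower and balanced (684 against 662). At like level, with probe number not matched, the exon SD was the larger in every bin up to 10, for example 0.59 against 0.49 from 6 to 7. Within that bin the intron SD was the larger at each number of probes, for example 0.55 against 0.43 with 3 probes.

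Many more intron sets passed 1.5-fold upward than downward. In the C3 KO array 1390 intron sets (26.1%) were at least 1.5-fold higher and 550 (10.3%) were at least 1.5-fold lower, against a background of 3.66% and 3.82% of the main clusters. Of the exon sets, 131 (9.69%) were higher and 104 (7.69%) were lower. Taken in either direction, 36.4% of the introns, 17.4% of the exons and 7.48% of the main clusters passed. At 2-fold, 605 introns were higher and 184 lower, while 44 exons were higher and 38 lower, and the background share was 0.669% higher and 0.678% lower, 1.35% in all. Of the sets that passed 1.5-fold, the higher ones made up 71.6% for introns, 55.7% for exons and 48.9% for main clusters. When the difference was centred by a loess curve through the main clusters, these shares were 73.3%, 52.1% and 53.0%, and the median was 0.20 for introns and -0.035 for exons.

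The upward shift of the introns was present over most of the range of levels. For sets with a mean level from 3 to 4 the intron median was 0.29 (n = 701), from 4 to 5 it was 0.20 (n = 1135), and from 5 to 6 it was 0.22 (n = 1491). The main clusters of the same levels had medians of 0, -0.06 and -0.05. From 6 to 7 and from 7 to 8 the intron medians were both 0.14 (n = 1072 and 409), against 0.02 and 0.04 for main clusters, and from 8 to 9 it was 0.15 (n = 91) against 0.04. The introns thus stood above main clusters of like level by 0.26 to 0.29 between levels 3 and 6 and by 0.10 to 0.12 between levels 6 and 9. The 8 intron sets at 10 or more had a median of -0.02, and the 17 sets from 9 to 10 had 0.16, both numbers too small to place that end of the range.

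The exon sets followed the main clusters where they were numerous. From level 6 upward, which holds 1189 of the 1352 exon sets, the medians of the 5 level bins lay between -0.01 and 0.02. The main clusters of these levels had medians from 0.02 to 0.06, so that the exon medians were lower by 0.02 to 0.07. Below level 5 only 85 exon sets were found, and their medians scattered, at 0.62 under level 3 (n = 15), -0.10 from 3 to 4 (n = 23) and 0.16 from 4 to 5 (n = 47).

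**Figure D3:**
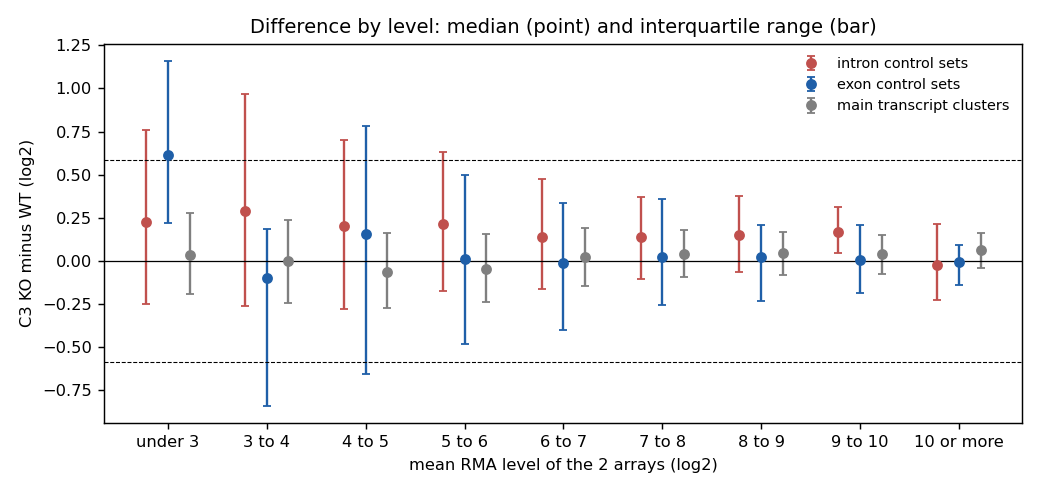
C3 KO minus WT difference (log2) by the mean RMA level of the 2 arrays, as the median (point) and interquartile range (bar) of intron sets, exon sets and main clusters, with dashed lines at 1.5-fold. Intron medians lie above those of main clusters in every bin up to 10, and exon medians lie close to 0 from level 6 upward.

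The spread of both control classes was wider at low than at high levels. For introns the SD was 0.93 at levels from 3 to 4, 0.61 from 5 to 6 and 0.35 from 8 to 9, and for exons 1.18, 0.77 and 0.38. Scaled to an SD, the median absolute deviation of the introns was 1.70 to 2.47 times that of main clusters in the bins from 3 to 9, and that of the exons 1.75 to 3.23 times. By this measure, both control classes spread more than the main clusters at like level, without regard to the number of probes. By SD, main clusters spread more than introns from 7 to 8 (0.45 against 0.39). From 8 to 9 their SD of 0.59 exceeded that of both control classes. Against main clusters of 4 to 9 probes, the deviation of introns of 4 or 5 probes was larger in every bin up to 7. From 7 to 8 and from 8 to 9 it was smaller, at 0.31 against 0.34 and 0.29 against 0.36.

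The main clusters of like level passed 1.5-fold far less often than either control class. With the share of main clusters in each level bin weighted by the number of intron sets there, 8.04% of main clusters would have passed (3.87% higher and 4.17% lower), against 36.4% of introns (26.1% and 10.3%). With the exon sets as weights the share was 3.89%, against 17.4% of exons. The ratio was similar for both classes, 4.53 for introns and 4.47 for exons. However, main clusters have a median of 22 probes and at least 4, while control sets have few, and this comparison does not account for that.

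When the class of probe number was matched in addition to level, the excess of the introns was smaller, and taken over all levels it was upward only. The 4494 introns of 4 or 5 probes were set against the 2741 main clusters of 4 to 9 probes. Of the introns 25.6% were at least 1.5-fold higher and 9.26% were at least 1.5-fold lower, while at the same level profile the main clusters gave 11.1% higher and 10.1% lower. The downward share of the introns was thus 0.920 times, and the upward share 2.30 times, that of main clusters with few probes, against 2.47 and 6.74 times with level alone matched. The medians pointed the same way: in the bins from 3 to 9 these main clusters had medians from -0.03 to 0.07, and these introns from 0.13 to 0.29. For the 117 exon sets of 4 or more probes, 12.8% passed in either direction, against 14.8% of main clusters of like level and probe class. The number of probes was not alike in this comparison, since 90.8% of the main clusters of 4 to 9 probes have 8 or 9. The 168 main clusters of 4 to 6 probes, the nearest in number, had a median difference of -0.06 without regard to level, with 9.52% higher and 16.7% lower. By level, the upward share of introns of 4 or 5 probes exceeded that of main clusters of 4 to 9 probes in every bin up to 7, for example with 26.3% against 9.02% from 5 to 6. From 7 to 8 both were close, 9.62% and 9.09%, and from 8 to 9 they were 8.93% (n = 56) and 4.21% (n = 95). The downward share of these introns was the larger below level 5, with 11.8% against 8.42% under 3. It was 13.9% against 12.6% from 3 to 4 and 12.0% against 11.25% from 4 to 5. From level 5 upward it was the smaller, for example 7.87% against 10.3% from 5 to 6.

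**Figure D4:**
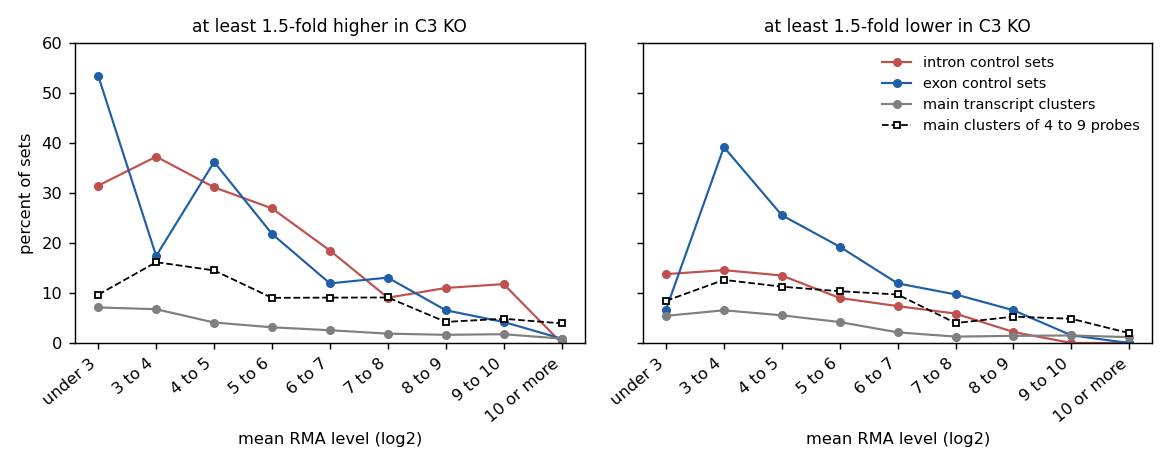
Percent of intron sets, exon sets, main clusters and main clusters of 4 to 9 probes that were at least 1.5-fold higher (left) or lower (right) in the C3 KO array, by mean RMA level (log2). On the left, introns stand above the main clusters of 4 to 9 probes in every bin below 10 except from 7 to 8 (9.05% against 9.09%), and on the right they run from 13.8% against 8.42% under level 3 to 2.20% against 5.26% from 8 to 9. The exon points below level 5 rest on 15, 23 and 47 sets.

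The number of probes differs strongly between the classes. Of the introns, 4488 (84.2%) have 4 probes, 598 have 3, 170 have 2, 69 have 1 and 6 have 5. Of the exons, 656 (48.5%) have a single probe, 381 have 2, 198 have 3 and 117 have 4 or more, up to 23. For a set with a single probe the level rests on 1 spot of the array, without averaging over probes.

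Among exons, the sets of 1 probe were the brightest. The median level of exon sets with 1 probe was 8.89 (WT) and 8.91 (C3 KO), with 2 probes 8.22 and 8.31, with 3 probes 7.55 and 7.59, and with 4 probes 7.04 and 7.03. The order did not go on beyond 4 probes, since the 29 exon sets with 5 probes were at 7.26 and 7.14 and the 25 sets with 6 or more at 6.09 and 5.78. Among introns, the median did not follow the number of probes: it was 5.52 and 5.64 for 1 probe, 5.09 and 5.11 for 2, 5.24 and 5.48 for 3, and 5.20 and 5.41 for 4. In each of these groups of introns, the C3 KO array had the higher median.

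The spread of the difference narrowed with more probes. For introns the SD was 1.16 with 1 probe, 0.87 with 2, 0.82 with 3 and 0.64 with 4. For exons it was 0.54 with 1 and with 2 probes, 0.44 with 3 and 4, and 0.39 with 5. The median difference of introns was 0.08 with 1 probe (n = 69), 0.22 with 2, 0.17 with 3 and 0.19 with 4, and for exons it lay between -0.02 and 0.06 in all groups from 1 to 6 or more probes. The share of introns that passed 1.5-fold went from 52.2% with 1 probe to 34.8% with 4, while the upward part was 30.4% and 25.6% and the downward part 21.7% and 9.25%.

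**Figure D5:**
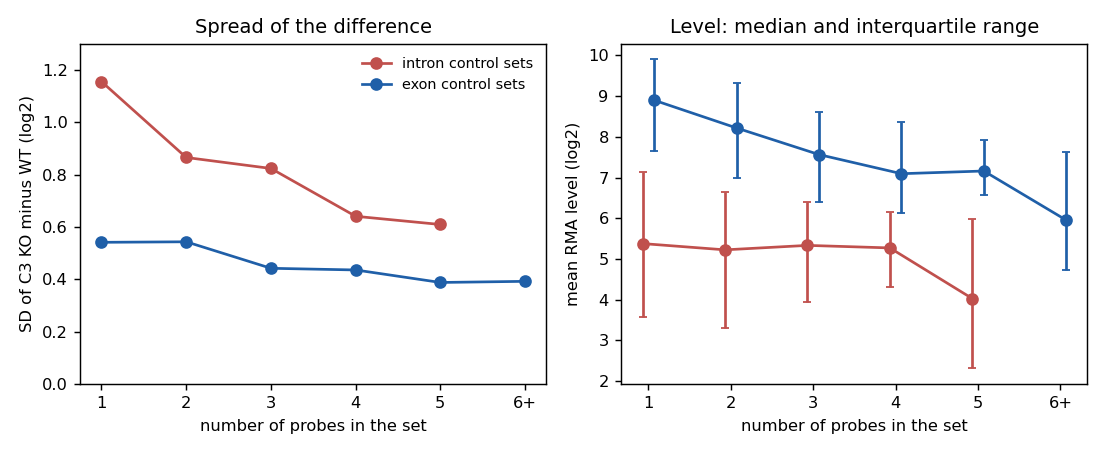
Left, SD of the C3 KO minus WT difference (log2) by the number of probes in the set, for intron and exon sets. Right, mean RMA level (log2) as median and interquartile range. The intron SD goes from 1.16 with 1 probe to 0.64 with 4, and the exon level is highest with 1 probe. The 5-probe intron point rests on 6 sets.

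Introns and exons were compared at levels from 6 to 8, where both are frequent. With 1 to 3 probes, 234 introns had a median difference of 0.14 (interquartile range -0.23 to 0.46, SD 0.54) and 378 exons had 0.01 (-0.33 to 0.38, SD 0.54). The SDs were nearly equal, but these groups were not alike in probe number or level. Introns had a median of 3 probes and a median WT level of 6.84, and exons 2 probes and 7.19. The difference in position was not seen from 7 to 8 alone, where introns of 1, 2 and 3 probes had medians of -0.18 (n = 12), -0.05 (n = 23) and 0.02 (n = 62) and exons had 0.03, 0.06 and -0.01. Over the whole range from 6 to 8, 18.4% of the introns of 1 to 3 probes were at least 1.5-fold higher and 11.1% lower. Of the exons of 1 to 3 probes, 13.8% were higher and 10.8% lower. Over both levels with 4 or 5 probes, 1247 introns had a median of 0.14 (SD 0.45) and 49 exons had -0.01 (SD 0.43). Of these introns 15.4% were higher and 6.17% lower, and 3 of the 49 exons were higher and 5 lower. Main clusters of 4 to 9 probes at these levels had a median of 0.04, with 9.07% higher and 7.66% lower.

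The files do not pair the control sets with genes or positions, so they are named by their identifier alone. At a mean level of 5 or more, intron set 17207215, with 3 probes, was at 3.93 (WT) and 6.53 (C3 KO), a difference of 2.60. Exon set 17391485, with 1 probe, was at 5.55 and 7.39, a difference of 1.84. In the other direction, intron set 17208311, with 3 probes, was at 6.13 (WT) and 4.05 (C3 KO), a difference of -2.08, and exon set 17475198, with 1 probe, was at 6.02 and 3.98, a difference of -2.03. The 5 introns with the largest differences upward ranged from 1.97 to 2.60 and the 5 downward from -2.08 to -1.49, and the 5 exons of each direction ranged from 1.43 to 1.84 and from -2.03 to -1.57.

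The brightest introns reached the levels of bright exons and differed little. The 5 introns with the highest mean level lay between 10.9 and 11.4 in the WT array and between 10.6 and 11.6 in the C3 KO array, and their differences ranged from -0.28 to 0.22. The first pair of them had the same values in both arrays, 11.41 and 11.63. A level of at least 9 was found for 26 introns in WT and 30 in C3 KO. The 3 brightest exons lay between 12.2 and 12.6 in WT and between 12.4 and 12.7 in C3 KO, with differences from 0.08 to 0.18. The 5 dimmest exons lay between 1.40 and 2.14 in WT and between 2.15 and 3.26 in C3 KO.

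A few exon sets could be tied to a named RNA. Among the 117 exon sets with 4 or more probes, 11 had a main cluster with the same number of probes and identical values in both arrays, to 5 decimals. All 11 are among the 18 exon sets with 8 or more probes, a limit seen only from the matches. The deposited annotation names the matching clusters. They are mostly short non-coding RNAs, and 9 of the 11 have a RefSeq gene of the same symbol in GRCm38.p6, which each overlaps. This overlap concerns the annotated clusters and does not place the exon sets. The match was looked for after the values were seen, and the positions below are those of the deposited annotation. Snora21 and Snora28, small nucleolar RNAs that guide the conversion of uridine to pseudouridine in ribosomal RNA, were bright. Snora21 (chromosome 11, 97781639 to 97781775, minus strand) was at 11.44 (WT) and 11.74 (C3 KO), and Snora28 (chromosome 12, 111540941 to 111541067, plus strand) at 8.95 and 9.30. Rps27, which encodes a protein of the small ribosomal subunit, was at 6.13 and 6.32 (chromosome 3, 90212667 to 90213651, minus strand). Of these 11 sets, 9 were higher in the C3 KO array, 2 were lower and 0 passed 1.5-fold, against 7.48% of the main clusters. Gm20695, with 5.20 in WT and 5.78 in C3 KO, had the largest difference of the 11, 0.58, just short of the threshold.

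Of the 11 clusters, 3 are microRNA genes, and 2 of them are neighbours on the X chromosome of GRCm38 and belong to the let-7 family. The let-7 microRNAs pair with target mRNAs mainly through the seed, the bases from position 2 to 8, and are known for holding back growth and stem cell genes in differentiated tissue. The tie of 2 exon sets to these neighbouring genes rests on equal values and probe number, not on an annotation of the sets. The main mature strands of both genes from RefSeq (GRCm38.p6) are shown 5′ to 3′, with the seed in capitals.
mmu-let-7f-5p: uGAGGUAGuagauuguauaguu
mmu-miR-98-5p: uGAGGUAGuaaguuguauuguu
Both share the seed GAGGUAG. The set with the values of Mirlet7f-2 (151912346 to 151912428, plus strand) was at 2.14 (WT) and 2.15 (C3 KO), below the antigenomic median in both. The set with the values of Mir98 (151913214 to 151913321, plus strand) was at 4.39 and 4.88, a difference of 0.49. Mir1929, on chromosome 10 (44359676 to 44359768, plus strand), was at 6.09 and 6.16. A set over a microRNA gene reads the hairpin region, and whether its signal came from precursor or mature RNA cannot be told apart here.

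Some control sets repeat each other. Among the introns, 418 sets formed 209 pairs with the same values in both arrays, and 358 of these sets have 4 or more probes. Among the exons there were 4 such sets in 2 pairs. Counted once each, 5122 distinct introns remained, with 1348 at least 1.5-fold higher, 512 lower and a median difference of 0.19. In either direction 36.3% of them passed, against 7.48% of all main clusters. When the introns were taken in the order of their identifiers and split into 10 parts of 533 or 534 sets, the median difference was positive in all 10 parts, between 0.09 and 0.26, and the share of sets higher in the C3 KO array was between 56.1% and 68.5%. The upward shift was therefore not limited to a block of identifiers. What the order of the identifiers stands for is not given in the sources used here.

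The background controls differed in the other direction from the introns. The 23 antigenomic sets had a median difference of -0.22 (range -0.50 to 0.12). The 10 of them at level 5 or above were all lower in the C3 KO array, by 0.27 to 0.50 on the log2 scale, while the 10 under level 3 ranged from -0.11 to 0.12. At levels from 5 to 8, intron medians were 0.14 to 0.22 and these antigenomic sets were all below 0. Among other special categories, the 558 sets called rescue, whose median levels were 5.55 (WT) and 5.56 (C3 KO), had a median difference of 0.09. At 1.5-fold 47 (8.42%) were higher and 24 (4.30%) lower, against 3.66% and 3.82% of main clusters. The 25 ribosomal RNA sets, with a median level of 11.6 in both arrays, had a median difference of 0.22, with 4 (16%) higher and 0 lower. Probe sequence and base composition, in which antigenomic, intron and exon probes can differ, are not part of the tables used here, and their part in these differences was not tested.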

How the data were processed

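The authors hybridized labeled cDNA of 1 WT and 1 C3 KO colon sample to Mouse Gene 2.0 ST arrays and deposited log2 levels from gene-level RMA (Affymetrix Power Tools; versions not given in the sources used here). The other deposited column used, the number of probes of each set, comes from the array annotation. Tables of the authors' own folds and of KEGG and GO enrichment were not used. The members and lists were chosen with earlier results of these data known.

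Control sets were taken by category. Differences are C3 KO minus WT, and 1.5-fold was the threshold. Main clusters were read in bins of mean level 1 log2 wide and in classes of 1 to 3, 4 to 9, 10 to 19 and 20 or more probes. Single sets were named by size of difference at a mean level of 5 or more and by highest or lowest level, and at most 1 identifier per class and direction is printed. Arrays have no read depth, so precision depends on how many there are. The code was tested on simulated data. Alternatives were 2 centrings (median, and loess with fraction 0.3), level and probe minimums, the series table, 2-fold, narrower bins, another background reference and, added after the data were seen, identical sets counted once. Tools were matplotlib 3.10.9, statsmodels 0.14.6, scipy 1.17.1, numpy 2.4.6, pandas 2.3.3 and Python 3.11.15.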

Additional observations from a re-analysis of the deposited data

How the results depend on the processing

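Of 50 alternative values, 12 could not move, since the median difference of the main clusters is 0 and the series table holds the same values. Of the other 38, 21 stayed within the limits set for them (1.5 times for a count, a 95% interval otherwise) and 17 moved. These intervals treat sets or clusters of the same 2 arrays as independent, so they do not measure variation between mice. A change of sign was looked for in the intron median alone, which stayed positive. With loess centring the exon median changed sign, to -0.035 in place of 0.01. At a mean level of 6 or more, 352 introns (22.0%, with 247 higher and 105 lower) and 152 exons (12.8%) passed 1.5-fold. Main clusters passed in 2.04% to 4.67% in the level bins from 6 upward. The intron median was 0.14. At 2-fold 789 introns (14.8%) and 82 exons (6.07%) passed, against 1.35% of main clusters. With at least 4 probes 15 of 117 exons passed, and with at least 10 probes 0 of 11, with an exon median of 0.046. The main share at the level profile became 21.2% for introns and 14.8% for exons once the class of probe number was matched too. With at least 4 probes, the gap between exon and intron medians was 1.77 in WT and 1.60 in C3 KO, and the area under the curve 0.800 and 0.783. Against the 75th percentile of the antigenomic sets, 5037 introns in WT and 4797 in C3 KO lay below background. No intron has 10 probes, so that alternative gave no intron value, gap or area under the curve. No paired analysis was possible because each group holds 1 array, and for the same reason no array could be left out. Dim sets of 1 to 3 probes carry the widest spread, and without replicate arrays the spread between mice cannot be told apart from that of the sets.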
